A study of Mus musculus with 8 samples.

Results

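The cell proliferation genes described here are 30 genes of DNA replication and mitosis, taken by symbol from 55488 genes in the count tables. Of these, 10 act mainly in S phase (Mcm2 to Mcm7, Pcna, Rrm2, Tyms and Ccne2) and 20 mainly in G2 and mitosis. All 30 were found, and all 30 passed the filter on low counts. They were measured by bulk RNA-seq of dorsal skin from mice aged 3 months, in 4 TPH1 knockout libraries and 4 WT libraries. The knockout removes TPH1, the tryptophan hydroxylase that makes serotonin outside the brain. The labels give the genotype as TPH1 knockout or WT and name no strain, sex, litter, allele design or pooling of animals. Whether 1 mouse gave 1 library is not stated, and the p-values therefore measure only how far these 8 libraries spread, which may be technical.

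A dividing cell first loads the Mcm2 to Mcm7 helicase on its DNA, copies the DNA during S phase, and then condenses and separates its chromosomes in mitosis. Transcription of the S phase genes is driven by E2F factors, and that of the mitotic genes by complexes that include MYBL2 and FOXM1. In adult skin the dividing cells are mostly basal keratinocytes of the epidermis, sebaceous gland cells and, while hair grows, the matrix cells at the base of the follicle. In mice the follicles pass through a long resting phase between growth phases, so a patch of skin can hold few or many dividing matrix cells. In bulk tissue, fewer dividing cells and less RNA per dividing cell cannot be told apart.

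Part of the promoters of these genes carry letters by which S phase and mitotic genes are usually distinguished. Windows from 250 bases before to 50 bases after the start, from RefSeq on GRCm38.p6, were matched for 24 members and for none of Mcm4, Ccne2, Ccna2, Aurkb, Kif20a and Tpx2. The E2F letters TTTCCCGC, TTTCGCGC, TTTGCCGC or TTTGGCGC, read on both strands, were present in 4 of 8 S phase members (50%), in 1 of 16 mitotic members (6.25%) and in 2.6% of all 27025 genes with a window. The cell cycle homology region, TTTGAA on either strand, was present in 11 of 16 mitotic members (68.8%), in 1 of 8 S phase members (12.5%) and in 20.2% of all genes with a window. The CCAAT box was present in 7 of 8 S phase members, in 14 of 16 mitotic members (87.5% of each) and in 41.1% of all genes with a window. Matches were counted where they overlapped each other. The windows of Mcm3 (chr1:20820263-20820562, minus strand) and Mcm6 (chr1:128359656-128359955, minus strand) are printed as S phase promoters with E2F letters. Those of Ccnb2 (chr9:70421505-70421804, minus strand) and Cdk1 (chr10:69352863-69353162, minus strand) are printed as mitotic promoters with TTTGAA. Cdk1 is also the 1 of 16 mitotic members with E2F letters. Capitals mark the E2F letters, TTTGAA and CCAAT on either strand.
Mcm3: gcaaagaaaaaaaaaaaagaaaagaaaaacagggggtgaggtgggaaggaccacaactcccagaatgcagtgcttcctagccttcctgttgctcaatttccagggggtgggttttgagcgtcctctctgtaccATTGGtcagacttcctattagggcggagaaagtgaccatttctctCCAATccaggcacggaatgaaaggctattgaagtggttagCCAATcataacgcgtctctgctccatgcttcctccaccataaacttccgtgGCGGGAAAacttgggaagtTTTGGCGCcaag
Mcm6: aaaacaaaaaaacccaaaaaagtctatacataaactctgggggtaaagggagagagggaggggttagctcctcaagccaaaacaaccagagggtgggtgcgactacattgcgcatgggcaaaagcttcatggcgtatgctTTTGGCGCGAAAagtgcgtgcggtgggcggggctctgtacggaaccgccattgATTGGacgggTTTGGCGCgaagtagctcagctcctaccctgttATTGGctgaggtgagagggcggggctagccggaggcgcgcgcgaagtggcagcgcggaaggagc
Ccnb2: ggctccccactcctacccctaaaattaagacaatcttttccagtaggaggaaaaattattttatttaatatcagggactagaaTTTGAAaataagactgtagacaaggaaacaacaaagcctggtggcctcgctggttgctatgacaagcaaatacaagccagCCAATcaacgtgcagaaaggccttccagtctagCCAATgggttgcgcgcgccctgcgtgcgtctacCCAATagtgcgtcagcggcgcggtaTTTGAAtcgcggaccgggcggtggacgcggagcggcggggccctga
Cdk1: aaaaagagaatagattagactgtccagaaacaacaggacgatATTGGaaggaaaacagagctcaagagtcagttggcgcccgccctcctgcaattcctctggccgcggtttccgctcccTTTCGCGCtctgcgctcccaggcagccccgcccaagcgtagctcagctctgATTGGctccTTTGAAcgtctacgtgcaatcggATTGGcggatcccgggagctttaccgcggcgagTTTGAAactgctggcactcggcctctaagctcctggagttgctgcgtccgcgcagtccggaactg
A match describes the letters and is not evidence of a bound factor. Among genes that are not members, the same letters were distributed alike, with TTTGAA in 28 of 39 other mitotic genes and 5 of 28 other S phase genes. E2F letters were present in 12 of 28 other S phase genes and 2 of 39 other mitotic genes.

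The libraries held 20971362 to 24463068 expected counts in TPH1 knockout skin and 20531601 to 24678638 in WT skin. Tph1 itself had 0 counts in each of the 4 TPH1 knockout libraries, against 18, 0, 27 and 11 counts in the WT libraries. The genotypes overlapped because WT replicate 2 held none (two-sided exact permutation p = 0.143, where 4 against 4 libraries can give no less than 0.0286). The members held between 24 counts in a library, for Bub1, and 5543 counts, for Ube2c.

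None of the 30 proliferation genes passed the test between the genotypes (edgeR quasi-likelihood test, Benjamini-Hochberg adjusted p under 0.05 over 16908 genes), where 0.651% of all genes tested did (0.532% lower and 0.118% higher in TPH1 knockout). At an unadjusted p under 0.05 there were 3, Ccne2, Pcna and Kif20a, against 17.6% of all genes tested. The DESeq2 Wald test on the same counts called 1 member, Ccne2, and 994 of the 16908 genes. The log2 fold change, TPH1 knockout over WT, was below 0 for 26 members and above 0 for 4, whereas it was below 0 for 46.9% of all genes tested. WT replicate 3 held the highest value of 8 of the 10 S phase members and of 15 of the 20 mitotic members. WT replicate 1 held the lowest value of 6 S phase members.

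**Figure D1:**
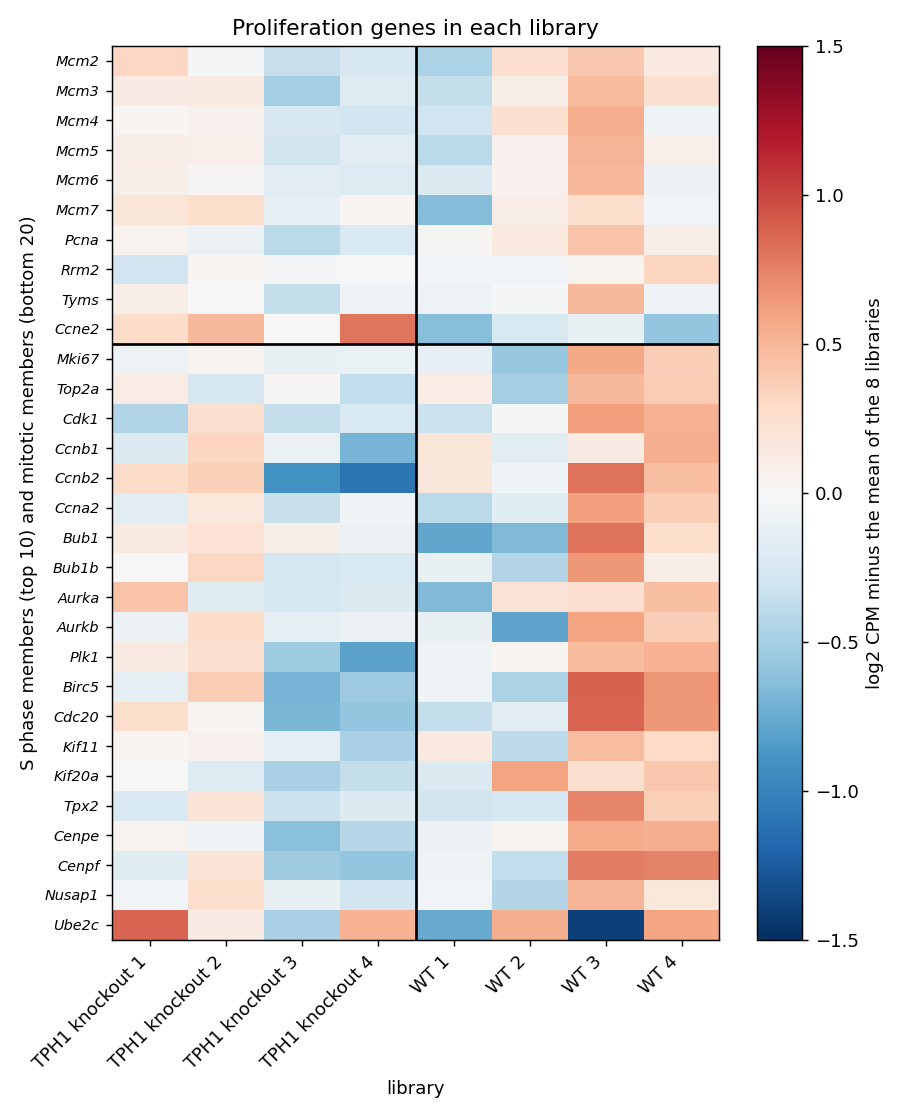
Each row is a gene and each column a library, and the colour gives log2 CPM minus the mean of that gene over the 8 libraries. WT replicate 3 is highest for 15 of 20 mitotic members, and Ube2c, in the bottom row, runs the other way with its lowest value there.

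The Mcm genes encode the 6 subunits of the replicative helicase. Mcm6 was at 55.8, 53.0, 47.0 and 45.8 CPM (counts scaled to library size) in TPH1 knockout libraries, against 45.1, 54.9, 74.1 and 49.4 CPM in WT libraries. The genotypes overlapped, since the highest and the lowest library were both WT. The log2 fold change of Mcm6 was -0.15 ± 0.16 (SE, edgeR adjusted p = 0.653). Mcm2, at 41.2, 32.5, 26.1 and 28.2 CPM in TPH1 knockout and 23.9, 39.5, 44.1 and 36.7 CPM in WT, also had both ends of its range in WT. The log2 fold changes of the 6 Mcm genes lay between -0.24 ± 0.19 for Mcm4 and 0.13 ± 0.19 for Mcm7 (SE, lowest edgeR adjusted p = 0.521). Mcm7 shares 321 exonic bases with the opposite-strand gene Ap4m1 and 64 with Cops6, and its expected counts were whole numbers in 0 of 8 libraries.

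Pcna encodes the sliding clamp that holds the DNA polymerase on its template. It was at 75.0, 67.9, 54.4 and 61.6 CPM in TPH1 knockout libraries, against 73.4, 79.7, 97.5 and 76.6 CPM in WT libraries. Only TPH1 knockout replicate 1 lay inside the WT range, above WT replicate 1. The log2 fold change was -0.34 ± 0.14 (SE), and it did not pass (edgeR adjusted p = 0.251). The annotation holds the processed copy Pcna-ps2, which drew 24.5 to 48.4 counts per library, against at least 1248 counts of Pcna in each library.

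Rrm2 and Tyms encode enzymes that supply deoxynucleotides, a subunit of ribonucleotide reductase and thymidylate synthase. Rrm2 averaged 12.2 ± 1.16 CPM in TPH1 knockout and 13.4 ± 1.66 CPM in WT (SD, n = 4 each), and Tyms averaged 9.57 ± 1.23 CPM in TPH1 knockout and 10.9 ± 2.25 CPM in WT. Neither difference passed the test (edgeR adjusted p = 0.645 and 0.628). Rrm2 had the smallest ratio of its highest to its lowest library of the 30 members, 1.51-fold, and was highest in WT replicate 4.

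Ccne2 encodes cyclin E2, which activates CDK2 at the start of S phase, and it was the one member whose genotypes did not overlap. It was at 5.23, 6.04, 4.31 and 7.51 CPM in TPH1 knockout libraries, against 2.76, 3.69, 4.0 and 2.88 CPM in WT libraries. Every TPH1 knockout library lay above every WT library, as in 5.39% of all genes tested. No member had all TPH1 knockout libraries below all WT libraries, as 5.65% of all genes tested did, and 11.0% of all genes did not overlap in either direction. The log2 fold change of 0.79 ± 0.24 (SE) did not pass (edgeR adjusted p = 0.16). Over 16 alternatives its log2 fold change ran from 0.64 to 0.95 and its adjusted p from 0.0452, with DESeq2, to 0.663. Ccne2 shares 609 exonic bases with Ints8 on the opposite strand, 17.4% of its exonic length. The library kit named in the labels, NEBNext Ultra RNA, leaves strand unmarked, though strand marking was not checked in the data. If so, reads of the 2 genes there cannot be told apart by strand. The expected counts of Ccne2 were whole numbers in 0 libraries. For Ints8, an Integrator subunit gene, the fitted log2 change was 0.04 ± 0.18 (SE), with an edgeR adjusted p of 0.932.

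Among the mitotic members, Mki67, the gene of the proliferation marker Ki-67, showed how the libraries were arranged. It was at 34.8, 37.6, 33.9 and 34.3 CPM in TPH1 knockout libraries, against 33.5, 24.6, 54.5 and 47.3 CPM in WT libraries. The TPH1 knockout libraries lay close together inside a WT range that was wide on both sides. The log2 fold change was -0.19 ± 0.22 (SE, edgeR adjusted p = 0.680). Top2a, the topoisomerase that untangles sister chromosomes, was at 27.9, 21.7, 26.2 and 20 CPM in TPH1 knockout and 27.9, 18.2, 36.2 and 33.7 CPM in WT. Its pattern was like that of Mki67, with WT replicate 2 lowest and WT replicates 3 and 4 highest (log2 fold change -0.28 ± 0.21 SE, edgeR adjusted p = 0.517).

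Cdk1 encodes the kinase that starts mitosis, and the cyclin genes Ccna2, Ccnb1 and Ccnb2 its activating partners. Cdk1 was at 5.69, 9.24, 6.06 and 6.60 CPM in TPH1 knockout libraries, against 6.20, 7.60, 11.9 and 11.1 CPM in WT libraries. WT replicates 3 and 4 stood above all the others, and the remaining WT libraries lay within the TPH1 knockout range. Ccnb2 was the most variable of the 4 genes, at 7.03, 7.41, 3.09 and 2.73 CPM in TPH1 knockout and 6.54, 5.55, 10.2 and 7.92 CPM in WT. The log2 fold changes were -0.41 ± 0.26 for Cdk1, -0.57 ± 0.36 for Ccnb2, -0.32 ± 0.25 for Ccnb1 and -0.25 ± 0.24 for Ccna2 (SE, lowest edgeR adjusted p = 0.424). Ccna2 shares 510 exonic bases with Exosc9 and its expected counts were whole in 0 libraries.

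Of the mitotic kinases, Plk1, which acts at centrosomes and kinetochores, averaged 4.22 ± 1.42 CPM in TPH1 knockout and 5.74 ± 1.15 CPM in WT (SD, n = 4 each). Aurka, the centrosome kinase, averaged 5.45 ± 1.37 CPM in TPH1 knockout and 6.02 ± 1.75 CPM in WT, and Aurkb, the kinase of the chromosomal passenger complex, 4.16 ± 0.593 CPM in TPH1 knockout and 4.48 ± 1.71 CPM in WT. None of these differences passed (edgeR adjusted p = 0.435, 0.820 and 0.883 for Plk1, Aurka and Aurkb). Birc5, which encodes survivin, the partner of Aurora B, ranged further. It was at 5.78, 8.20, 3.92 and 4.37 CPM in TPH1 knockout libraries, against 6.09, 4.58, 11.8 and 10.1 CPM in WT libraries (log2 fold change -0.54 ± 0.35 SE, edgeR adjusted p = 0.432).

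Bub1 and Bub1b encode kinases of the spindle checkpoint, which holds cells until every chromosome is attached. Bub1 was the lowest member, at 1.80 ± 0.153 CPM in TPH1 knockout and 1.76 ± 0.933 CPM in WT (SD, n = 4 each), a log2 fold change of 0.03 ± 0.39 (SE). Its WT libraries ran from 0.98 to 2.97 CPM. Bub1b averaged 6.74 ± 1.30 CPM in TPH1 knockout and 7.38 ± 2.45 CPM in WT (edgeR adjusted p = 0.823). Cdc20, the activator of the anaphase-promoting complex that the checkpoint restrains, was at 11.1, 9.49, 5.75 and 6.14 CPM in TPH1 knockout and 7.22, 8.22, 16.9 and 14.5 CPM in WT. The groups overlapped for Cdc20 as well (log2 fold change -0.53, SE 0.33, with an edgeR adjusted p of 0.418).

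The genes of spindle and kinetochore proteins covered a wide range of log2 fold changes, all below 0. Cenpf, a kinetochore and nuclear matrix protein gene, was at 7.40, 9.66, 5.79 and 5.60 CPM in TPH1 knockout libraries, against 8.05, 6.49, 14.3 and 14.1 CPM in WT libraries. Its value was -0.59 ± 0.30 (SE, edgeR adjusted p = 0.335), the lowest of the 30. Cenpe, a kinetochore motor gene, was at -0.53 ± 0.25, and the spindle motor gene Kif11 at -0.28 ± 0.22. The microtubule-binding genes Tpx2 and Nusap1 were at -0.33 ± 0.26 and -0.11 ± 0.24 (SE). No gene of this set separated the genotypes.

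Kif20a, a motor gene of cytokinesis, was at 5.74, 5.0, 4.05 and 4.46 CPM in TPH1 knockout libraries, against 4.92, 8.57, 6.74 and 7.52 CPM in WT libraries. It was highest in WT replicate 2, the library where Mki67, Top2a, Bub1b, Aurkb and Nusap1 were lowest. The log2 fold change of -0.53 ± 0.23 (SE) did not pass (edgeR adjusted p = 0.266). Kif20a shares 1271 exonic bases, 29.3% of its exonic length, with the opposite-strand gene Cdc23, which encodes a subunit of the anaphase-promoting complex. Its expected counts were whole in 0 libraries and came to 11.6% to 27.4% of those of Cdc23.

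**Figure D2:**
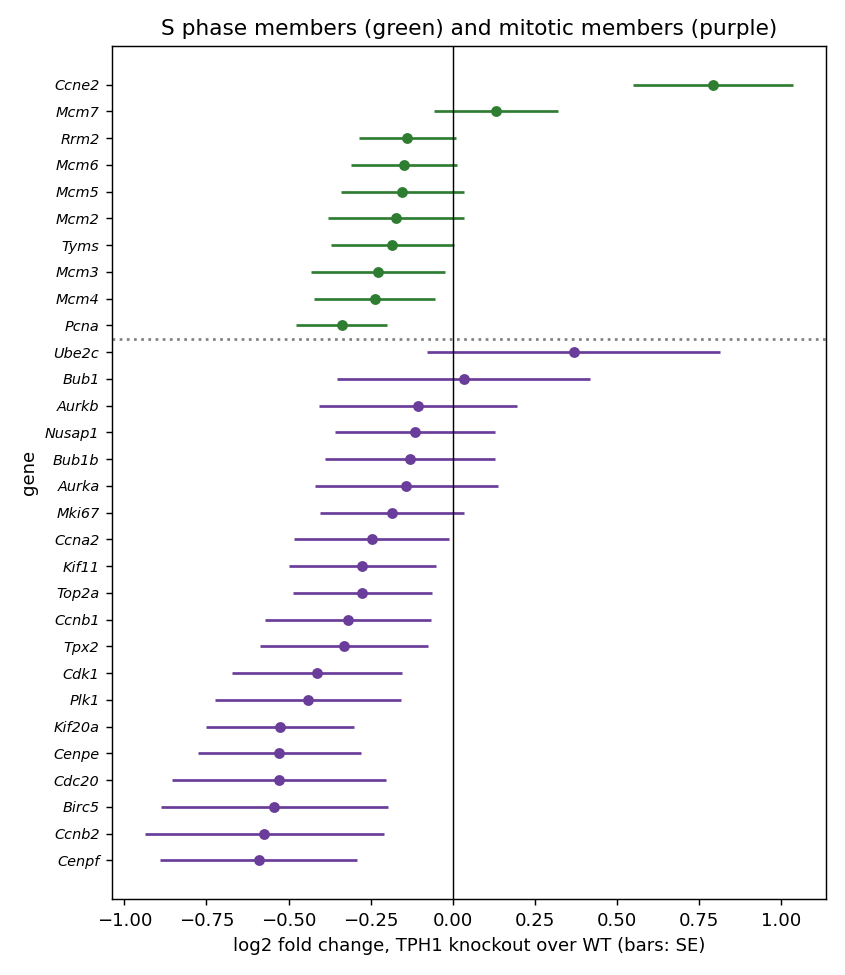
Points give the log2 fold change of each gene, TPH1 knockout over WT, and bars its SE, with S phase members above the dotted line and mitotic members below it. Most points lie left of 0, and Ccne2 at 0.79 lies farthest to the right.

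Ube2c, the ubiquitin-conjugating enzyme gene that works with the anaphase-promoting complex, did not behave like the other 19 mitotic members. It was at 256, 152, 99.6 and 200 CPM in TPH1 knockout libraries, against 82.6, 203, 52.8 and 210 CPM in WT libraries. The lowest value was in WT replicate 3, where 15 of the other mitotic members were highest, and the highest library exceeded the lowest 4.86-fold. Per length, Ube2c had a median of 107.9 TPM (expression scaled to gene length and library size), against 0.70 TPM for Bub1 to 15.02 TPM for Top2a among the other mitotic members. In the annotation its exons share 592 bases, from 164777190 to 164778227 on chromosome 2 of GRCm38, with Tnnc2 on the opposite strand. Tnnc2 encodes the calcium-binding troponin C of fast skeletal muscle.

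Tnnc2 was at 4990, 2720, 1920 and 4080 CPM in TPH1 knockout libraries, against 1690, 4130, 775 and 3750 CPM in WT libraries. The expected counts of Ube2c came to 5.14%, 5.58%, 5.18% and 4.91% of those of Tnnc2 in TPH1 knockout libraries and to 4.90%, 4.92%, 6.81% and 5.59% in WT libraries. Both genes thus had the same order of high and low libraries but for WT replicates 2 and 4 and TPH1 knockout replicate 4, which lay close together. All 12 skeletal muscle genes of the marker list had log2 fold changes above 0 and 0 were called. Their summed level was 61226 to 109566 CPM in TPH1 knockout and 14913 to 98107 CPM in WT, with no marker at 0. The part of Tnnc2 reads in the Ube2c value was not tested, so results on the mitotic members are given with and without Ube2c.

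**Figure D3:**
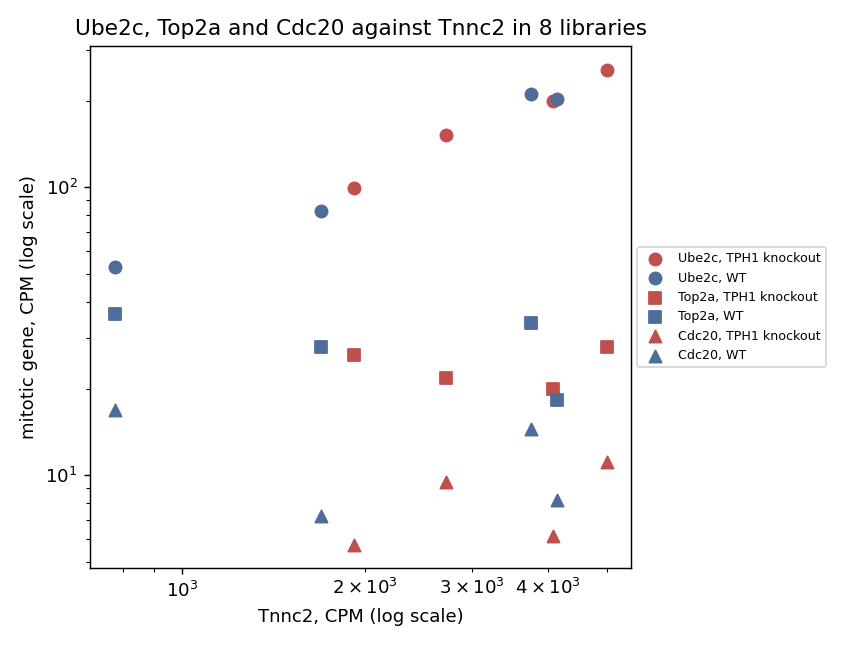
Each point is a library, with Tnnc2 CPM on the horizontal axis and the CPM of Ube2c (circles), Top2a (squares) or Cdc20 (triangles) on the vertical axis, both on log scales. Ube2c climbs with Tnnc2 from 52.8 to 256 CPM, while Top2a and Cdc20 do not.

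Across the 30 members, 7 share exonic bases with another protein-coding gene (Ube2c, Kif20a, Ccne2, Ccna2, Mcm7, Nusap1 and Cdc20), and 0 of these had whole expected counts in all 8 libraries. Of the 23 that share none, 19 had whole counts in every library. Per length, Pcna followed Ube2c with a median of 67.0 TPM, and Mcm7, Mcm6 and Mcm3 had 29.7, 23.3 and 20.8 TPM. The S phase genes other than Ccne2 and Rrm2 were thus at 11.5 TPM or more, while 17 of the mitotic members lay below that of Mcm4. Plk1 and Mki67 are the members on chromosome 7, at 75.51 and 89.05 Mb from Tph1.

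The median log2 fold change was -0.16 over the 10 S phase members and -0.30 over the 20 mitotic members, against 0.03 over all genes tested. Without Ube2c the mitotic median was -0.32. Without 1 library the S phase median ran from -0.26 to -0.04 and the mitotic median from -0.43 to -0.16, and both were nearest 0 without WT replicate 3. The S phase median was -0.26 without WT replicate 1 and -0.10 without TPH1 knockout replicate 3. To set libraries side by side, log2(CPM + 1) was averaged over the genes of a list, which gives the list's level in that library. The S phase level averaged 4.63 ± 0.15 in TPH1 knockout and 4.69 ± 0.26 in WT, and the mitotic level 3.16 ± 0.22 in TPH1 knockout and 3.39 ± 0.33 in WT (SD, n = 4 each). Both differences were smaller than the SD of either group or close to it.

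The S phase and mitotic genes did not order the libraries alike. The S phase level was 4.75, 4.74, 4.42 and 4.60 in TPH1 knockout libraries, against 4.37, 4.73, 5.0 and 4.67 in WT libraries. Without Ube2c the mitotic level was 3.06, 3.18, 2.77 and 2.74 in TPH1 knockout libraries, against 2.94, 2.86, 3.58 and 3.44 in WT libraries. WT replicate 3 was highest for both. WT replicate 1 was ranked 8 of 8 for S phase genes and 5 for mitotic genes, and WT replicate 4 ranked 5 for S phase genes and 2 for mitotic genes.

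The S phase minus mitotic level, a difference of log2 levels, was 1.44, 1.36, 1.45 and 1.61 in TPH1 knockout libraries, against 1.26, 1.62, 1.32 and 1.01 in WT libraries. The genotypes overlapped, with the lowest and the highest value both in WT. The mean was 1.47 ± 0.11 in TPH1 knockout and 1.30 ± 0.25 in WT (SD, n = 4 each), a difference of 0.16. It was 0.09 on the log2(TPM + 1) scale, 0.20 without Ube2c and 0.23 without the Mcm genes. Without 1 library it ran from 0.07 to 0.27. The value of 0.07 was reached without WT replicate 4 and that of 0.27 without WT replicate 2. For the 38 S phase and 44 mitotic genes that are not members, the same difference of levels was -0.22, -0.35, -0.34 and -0.16 in TPH1 knockout libraries, against -0.65, -0.41, -0.49 and -0.50 in WT libraries. There every TPH1 knockout library lay above every WT library, with means of -0.27 ± 0.09 in TPH1 knockout and -0.51 ± 0.10 in WT (SD, n = 4 each), 0.25 apart. No p was computed for either difference, and how often other lists separate was not tested. Among single genes, 5.39% of all tested had every TPH1 knockout library above every WT library.

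Relative to 13 basal keratinocyte genes the order of the libraries changed. The basal level averaged 8.90 ± 0.26 in TPH1 knockout and 9.02 ± 0.24 in WT (SD, n = 4 each), and Krt5, the basal keratin gene, averaged 5917 ± 1700 CPM in TPH1 knockout and 7440 ± 2281 CPM in WT. The mitotic level without Ube2c, minus the basal level, was -5.96 ± 0.20 in TPH1 knockout and -5.81 ± 0.38 in WT. The S phase level minus the basal level was -4.27 ± 0.12 in TPH1 knockout and -4.32 ± 0.19 in WT. Both differences between genotypes were smaller than the SD of either genotype. TPH1 knockout replicate 3 had the lowest basal level, 8.52, and relative to it ranked 3 of 8 for mitotic and 2 of 8 for S phase genes. WT replicate 3 had the highest basal level, 9.32, and relative to it ranked 2 of 8 for mitotic and 4 of 8 for S phase genes. Its skeletal muscle level was the lowest, 9.66, against 11.1 to 12.6 in the other libraries. The part of tissue composition in its values was not tested.

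Hair growth was read from 20 genes of the hair shaft and inner root sheath, which are made mainly in growing follicles, and from 16 genes of the hair matrix. The hair shaft level was 0.54, 2.76, 5.91 and 0.87 in TPH1 knockout libraries, against 0.45, 0.59, 2.47 and 1.45 in WT libraries. TPH1 knockout replicate 3 held the highest value of all 20 genes. In that library Krt71, a keratin gene of the inner root sheath, was at 602 CPM, against 0.37 to 25.4 CPM in the other TPH1 knockout libraries and 0.227 to 47.3 CPM in WT libraries.

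The library with the most hair shaft RNA was among the lowest for proliferation genes on the CPM scale, though not relative to the basal genes. TPH1 knockout replicate 3 ranked 7 of 8 for the S phase level and 7 for the mitotic level without Ube2c. With Ube2c it ranked 8, and its mitotic level was lower by 0.35 than the mean of the other 7 libraries on the CPM scale, and by 0.06 on the log2(TPM + 1) scale. The hair matrix genes, which include transcription factor genes of the dividing matrix cells such as Msx2, Foxn1 and Hoxc13, spread less. Their level was 2.58, 3.22, 3.39 and 2.71 in TPH1 knockout libraries, against 2.71, 2.66, 3.24 and 3.08 in WT libraries. Among WT libraries the hair matrix level and the mitotic level without Ube2c had the same order, replicate 3, 4, 1 and 2, whereas among TPH1 knockout libraries the matrix order was 3, 2, 4 and 1 and that mitotic order 2, 1, 3 and 4 (2, 1, 4 and 3 with Ube2c). With the hair shaft level as a covariate, 0 members were called and the mitotic median was -0.37.

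**Figure D4:**
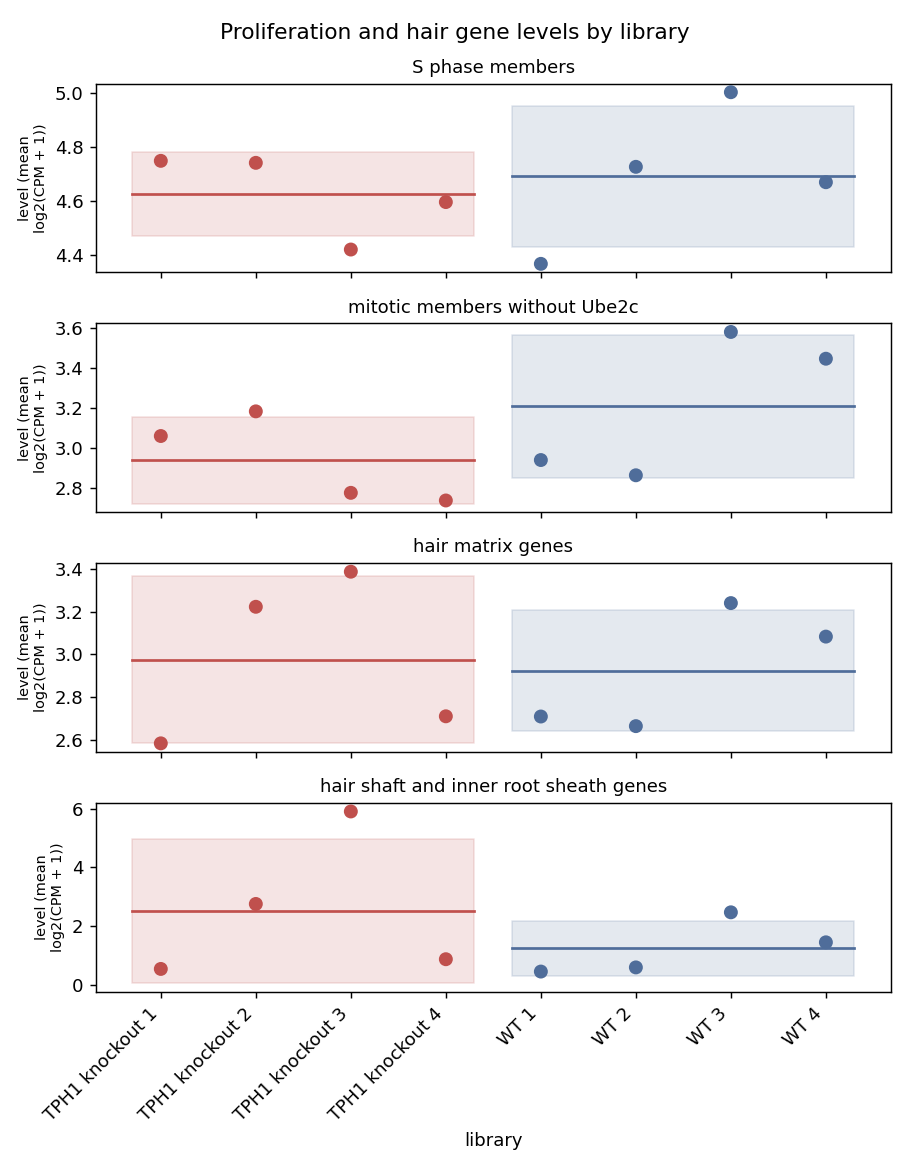
Points give the level of each list, the mean of log2(CPM + 1) over its genes, in each library, with lines for group means and bands for 1 SD. TPH1 knockout replicate 3 is at the top for hair shaft genes (5.91) and hair matrix genes (3.39), and near the bottom for mitotic members without Ube2c (2.77). WT replicates 3 and 4 rank 1 and 2 for these mitotic members, and 2 and 4 for hair matrix genes.

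Among other genes of the cell cycle, 0 were called of 38 further S phase genes and 0 of 44 further mitotic genes (edgeR). Of these, 4 and 10 had an unadjusted p under 0.05 (edgeR), against 17.6% of all genes tested. The median log2 fold changes of these lists were 0.02 and -0.26. Tubb4b, a beta-tubulin gene, was at 366, 334, 312 and 320 CPM in TPH1 knockout libraries, against 524, 574, 602 and 492 CPM in WT libraries. The genotypes did not overlap for Tubb4b, which had the smallest p of these lists without passing (log2 fold change -0.72 ± 0.14 SE, edgeR adjusted p = 0.0632). Nasp, which encodes a histone chaperone of S phase, was at 37.6, 32.2, 29.5 and 31.2 CPM in TPH1 knockout and 43.3, 43.0, 55.3 and 41.6 CPM in WT. It also separated the genotypes without passing (-0.49 ± 0.13 SE, edgeR adjusted p = 0.124). Separated genes went both ways. Blm, a DNA helicase gene, was at 3.05 to 3.62 CPM in TPH1 knockout and 1.80 to 2.67 CPM in WT (0.63 ± 0.23 SE, edgeR adjusted p = 0.216). Hjurp, the gene of the chaperone that places the centromeric histone, was at 95.1 to 131 CPM in TPH1 knockout and 81.9 to 88.2 CPM in WT (0.44 ± 0.13 SE, edgeR adjusted p = 0.140). Jpt1 was at 41.3 to 57.3 CPM in TPH1 knockout and 62.4 to 71.8 CPM in WT (-0.53 ± 0.12 SE, edgeR adjusted p = 0.0964), and Slbp, the histone mRNA binding protein gene, overlapped (-0.43 ± 0.16 SE, edgeR adjusted p = 0.21). In all, 2 of the 38 S phase and 7 of the 44 mitotic genes did not overlap between genotypes, against 11.0% of all genes tested. Exon sharing with other genes was examined for the members only, not for these lists.

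Upstream of the members, 0 of 19 genes of G1 and of transcriptional drive were called (edgeR), with a median of -0.01. Of these, 2 had an unadjusted p under 0.05 (edgeR), against 17.6% of all genes tested. Myc, a growth-promoting transcription factor gene, was at 61.2, 77.5, 45.7 and 48.8 CPM in TPH1 knockout libraries, against 178, 79.1, 224 and 108 CPM in WT libraries. All WT libraries were above all TPH1 knockout libraries (log2 fold change -1.34 ± 0.32 SE, edgeR adjusted p = 0.0969). Of 20 tested genes that restrain the cycle, 1 rose, 2 fell and 17 did not pass, where 0.118% of all genes tested rose and 0.532% fell. At an unadjusted p under 0.05 there were 6 of the 20 (edgeR), against 17.6% of all genes tested. Also 6 of the 20 did not overlap between genotypes, against 11.0% of all genes tested. Cdkn1b, the p27 gene, rose by 0.87 ± 0.16 and Cdkn1a, the p21 gene and a direct target of p53, fell by 0.93 ± 0.17 on the log2 scale (SE, edgeR adjusted p = 0.0483 and 0.0488). Sfn, which encodes 14-3-3 sigma, fell by 1.85 ± 0.34 (SE, edgeR adjusted p = 0.0487). Each of these calls held in only 1 of 8 fits that left out a library, and all kept their direction.

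Immediate early and heat shock genes respond within minutes to stress and to handling of tissue. Of 15 such genes, 14 had log2 fold changes below 0, with a median of -1.52. In the edgeR test 1 fell (Nr4a1), where 0.532% of all genes tested fell. At an unadjusted p under 0.05 there were 13 of these 15 genes, against 17.6% of all genes tested. Their level was 6.85, 7.37, 6.56 and 6.32 in TPH1 knockout libraries, against 8.57, 6.96, 8.90 and 8.16 in WT libraries, with WT replicate 3 highest, as for the mitotic members, and WT replicate 1 ranked 2 of 8. Their summed level was 1580 to 4410 CPM in TPH1 knockout and 2309 to 14858 CPM in WT, with no marker at 0. With their level (mean of log2(CPM + 1)) as a covariate, the S phase median was 0.01 and the mitotic median 0.18. Of the 30 members, 19 were above 0. The level itself differed between genotypes, at 6.77 ± 0.45 in TPH1 knockout and 8.15 ± 0.85 in WT (SD, n = 4 each). That fit therefore cannot cleanly separate genotype from this level. The part of immediate early and heat shock genes in the mitotic values was not tested.

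Immune cells can also divide in skin. The T cell list had a level of 1.86 ± 0.41 in TPH1 knockout and 2.08 ± 0.19 in WT (SD, n = 4 each). The list of macrophage and dendritic cell genes was at 4.69 ± 0.68 in TPH1 knockout and 5.30 ± 0.27 in WT. In each list 0 of 10 tested genes were called (edgeR). An unadjusted p under 0.05 (edgeR) was reached by 1 and 3 of them, against 17.6% of all genes tested. Both lists were highest in TPH1 knockout replicate 3, the library ranked 7 of 8 for mitotic genes without Ube2c. Of 5 B cell genes 0 passed the filter, and they summed to at most 0.874 CPM in TPH1 knockout and 0.567 CPM in WT.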

How the data were processed

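Dorsal skin RNA from 4 TPH1 knockout and 4 WT libraries was sequenced. Per the labels' protocols, total RNA came from a Qiagen column kit, and library preparation used NEBNext Ultra RNA reagents. RSEM 1.31, STAR 2.7.6a, DESeq, DESeq2 and the build GRCm38 are listed without roles in the submitters' processing notes, and Ensembl release 101 in the labels. The deposited expected counts are RSEM estimates per gene, not normalized. The deposited TPM values were made by the authors from those estimates and effective lengths, and served to compare genes within a library and as an alternative scale. The authors' matrix of 17382 genes, a normalized signal, was used only for symbols, and effective lengths entered 1 alternative fit.

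Rounded expected counts entered edgeR 4.0.16 (R 4.3.3). Genes were filtered by filterByExpr (minimum count 10, total 15), scaled by TMM and fitted with genotype as the only term by the robust quasi-likelihood test. SE was taken as the absolute log2 fold change over the root of the F statistic. Alternatives were DESeq2 1.42.0, other scalings, no filter, a length offset, 2 covariates and libraries left out. Exonic overlaps came from GENCODE M21 on GRCm38. The genes named were Tph1, the 30 members and every called gene of the other lists. Further genes came from the 3 with the smallest p and the first listed in each list, but not all of those were named. Genes sharing exons with members, and the hair genes Krt71, Msx2, Foxn1 and Hoxc13, were chosen after their values were seen. The members and all 18 other lists were chosen with earlier results of these data known. The fit was tested on simulated data with 200 changed genes. It called 43% of those changed by a log2 size of 1 and 86% of those changed by 2. Smaller changes, such as the fitted -0.59 to 0.79 of the members, were not simulated. Precision is limited by 4 libraries per genotype and, for low genes, by their counts.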

Additional observations from a re-analysis of the deposited data

Results flagged for a closer look

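Of 76 groups of 4 libraries examined (30 members and 8 list levels in each genotype), 4 held a library far from the other 3 of its group, where chance flags about 1 group in 20. Rrm2 was at 10.5 CPM in TPH1 knockout replicate 1, against 12.6 to 13 CPM in the other TPH1 knockout libraries. Tyms was at 14.2 CPM in WT replicate 3, above the other WT libraries at 9.60 to 10 CPM. Aurka was at 7.5 CPM in TPH1 knockout replicate 1, against 4.62 to 4.91 CPM in the others. Aurkb was at 5.04 CPM in TPH1 knockout replicate 2, against 3.75 to 3.93 CPM in the others. Their causes were not tested.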

How the results depend on the processing

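The count of all genes called, 110, was 8 to 170 without 1 library, 167 without both WT replicate 2 (no Tph1 count) and TPH1 knockout replicate 3 (most hair RNA), 44 with the hair covariate, 6 with the immediate early covariate and 994 with DESeq2. The count of members called was 0 in every alternative but DESeq2, which called 1 (Ccne2, log2 fold change 0.79, adjusted p = 0.0452). The mitotic median stayed below 0 in every alternative but the immediate early covariate, where it was 0.18, with the S phase median at 0.0074. That covariate itself differed between genotypes, so the fit cannot cleanly separate it from genotype. The mitotic median was between -0.43 and -0.16 without 1 library, when the S phase median was between -0.26 and -0.04. On the TPM scale the mitotic level of TPH1 knockout replicate 3 minus the mean of the others was -0.056, and on the CPM scale -0.35. The cause was not tested.

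Of the 30 members, 10 kept their direction in all 16 alternatives, and 31 single values changed sign. With the length offset Bub1b, Aurka and Aurkb were at 0.029, 0.074 and 0.13. Bub1 was at -0.16 without both libraries named above and -0.069 with the hair covariate. Without 1 library the value ran from -0.17 (no WT replicate 1) to 0.41 for Bub1, -0.027 (no WT replicate 1) to 0.25 for Mcm7, -0.29 to 0.014 for Mcm5, -0.24 to 0.017 for Mcm6, -0.29 to 0.11 for Bub1b, -0.33 to 0.10 for Aurkb and -0.27 to 0.056 for Nusap1, each of the 7 highest without WT replicate 3. With the immediate early covariate, Mcm5, Mcm6, Tyms, Mki67, Top2a, Ccnb1, Ccnb2, Ccna2 and Bub1b were at 0.032, 0.041, 0.068, 0.44, 0.28, 0.10, 0.19, 0.15 and 0.56. There Aurkb, Birc5, Cdc20, Kif11, Tpx2, Cenpf, Nusap1 and Ube2c were at 0.74, 0.39, 0.10, 0.32, 0.23, 0.18, 0.51 and -0.44. No paired analysis was possible because replicate numbers were given in record order, which ties no library to another. Removing Ube2c and removing members that share exons were chosen after seeing the data.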
